A study of Mus musculus with 4 samples.

Results

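Ribonuclease P (RNase P) and RNase MRP are nuclear ribonucleoproteins that share most of their protein subunits. The genes described here are 9 of those protein genes, Pop1, Pop4, Pop5, Pop7, Rpp14, Rpp25, Rpp30, Rpp38 and Rpp40, together with Rida. These 10 genes were taken by symbol from a table of 25265 genes, and each symbol matched exactly 1 row. The study sequenced whole-testis RNA from C57BL/6 mice aged 56 days. By genotype, 2 libraries are labelled control and 2 are labelled Ythdf2-vKO, here shortened to vKO. The series title places the Ythdf2 mutation in germ cells only. The driver of the mutation, the deleted segment, the alleles carried by the controls and whether libraries stem from different animals are not given in the labels, so p-values measure the spread between these libraries, which may be technical.

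RNase P trims the leader sequence from precursor transfer RNAs, and RNase MRP cuts an internal spacer of the precursor ribosomal RNA. Each holds 1 catalytic RNA on which the proteins assemble. RIDA, also called HRSP12, is a small conserved protein with imine deaminase activity. In human cells it is known to join YTHDF2, a reader of N6-methyladenosine (m6A), to RNase P/MRP, which then cleaves the m6A-carrying RNA internally. This cleavage works beside the deadenylation route, in which YTHDF2 recruits CCR4-NOT. The comparison addresses whether transcripts of this cleavage machinery differed in testes with the mutant genotype.

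RIDA is known to bind a short GGUUC element, so the members' own messenger RNAs were searched for it. The search used GGTTC on the sense strand of the longest protein-coding GENCODE M21 transcript of each gene. Among 15850 tested protein-coding genes, 84.0% had at least 1 match and the median was 0.687 matches per kb. No match was found in 4 members, Rida itself, Pop7, Rpp25 and Rpp30. Rpp40 had 6 matches in 4380 bases, the most of any member, or 1.37 per kb. Per kb Rpp38 had the most, at 1.92. Pop1, Rpp14 and Rpp38 had 2 each, and Pop4 and Pop5 had 1 each. Of the 14 matches, 8 lie in the trailer after the coding sequence, 5 in coding sequence and 1 in the leader. Below are 6 of the 14 windows, shown as examples of how these transcripts hold the element, in lower case with the match in capitals. Not shown are 6 of Rpp40 (5 in the trailer) and 2 of Rpp14 (both in the trailer). Those of Pop1, of Pop5 and the second of Rpp38 lie in coding sequence, the first of Rpp38 in the leader and that of Pop4 in the trailer.
Pop1 (chr15:34510343-34510371, plus strand): tggagatgaacaGGTTCcggctgataggc
Pop1 (chr15:34528967-34528995, plus strand): ctgggagtccagGGTTCatgcccaagagg
Pop4 (chr7:38262488-38262516, minus strand): tagttgaaacctGGTTCacaggaatcact
Pop5 (chr5:115238045-115238138, plus strand, across a splice junction): acgccatggtgcGGTTCaagcacaggtac
Rpp38 (chr2:3332583-3332611, minus strand): agcgggcgcagtGGTTCctggtagtgacc
Rpp38 (chr2:3329470-3329498, minus strand): tgaactgctcctGGTTCtagtgtgtaagt
A match is a description of these letters in GRCm38 and was not tested as a binding site.

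Total gene counts lay between 24862518 and 29561182 per library. Ythdf2 itself had 1193 and 1604 counts in the controls, against 1774 and 1807 in vKO, so its level went against the label, although the counts cover the whole gene. Directions below are those of the labelled libraries. Control replicate 2 stood apart in base composition. The Spearman correlation of its deviations with transcript GC content, across 17817 genes, was -0.402, against 0.0169 in control replicate 1 and 0.257 and 0.194 in vKO. Marker genes of 10 testis cell types were all measured except 1 erythrocyte gene. All 11 Sertoli cell genes were higher in vKO, with summed levels of 1207 and 1287 CPM (reads per library size, with sizes adjusted by the TMM method) in control and 1806 and 1581 CPM in vKO. Of 9 elongating spermatid genes 8 were lower, with sums of 15000 and 12130 CPM in the controls, against 11700 and 11920 CPM in vKO. Genes of spermatogonia (8 of 8), Leydig cells (7 of 7), erythrocytes (4 of 4) and endothelial cells (4 of 5) also had mostly or wholly positive log2 fold changes, with medians of 0.25, 0.39, 0.76 and 0.43. The Leydig cell sums overlapped between the groups, at 258.2 and 314.4 CPM in the controls, against 431.8 and 311.5 CPM in vKO. Sums of the spermatogonia, erythrocyte and endothelial cell genes did not overlap. In the other 4 lists (spermatocytes, round spermatids, peritubular myoid cells and macrophages) the medians lay between -0.10 and 0.09. The part of these lists in the results below was not tested. In bulk tissue, fewer cells of a type and less RNA per cell cannot be told apart.

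The members covered a wide range of levels. Divided by the union of annotated exons, the mean over the 4 libraries ran from 25.02 CPM per kb for Rpp38 to 0.351 CPM per kb for Rpp25. Pop4 at 15.6, Rpp30 at 8.12 and Pop7 at 5.40 CPM per kb followed Rpp38, and their ranges over the libraries did not overlap with those of their upper neighbours. The ranges of Pop7, Rpp14 (3.66 CPM per kb) and Pop5 (3.36 CPM per kb) overlapped from each to the next. Pop1 at 1.31 and Rpp40 at 0.864 CPM per kb were lower, without overlap. Rida, at 0.485 CPM per kb, overlapped with Rpp25 at the bottom of the order.

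The order depended on the length used. With the longest protein-coding transcript in its place, Rpp30 stood at 29.7 CPM per kb, above Rpp38 at 25.02. Rida then stood at 1.54 CPM per kb, above Pop1 at 1.46 and Rpp40 at 1.29, and Pop5 at 7.53 was above Pop7 at 5.91. Rpp25 was the lowest member by each length. The plot of levels per kb shows both scales.

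**Figure D1:**
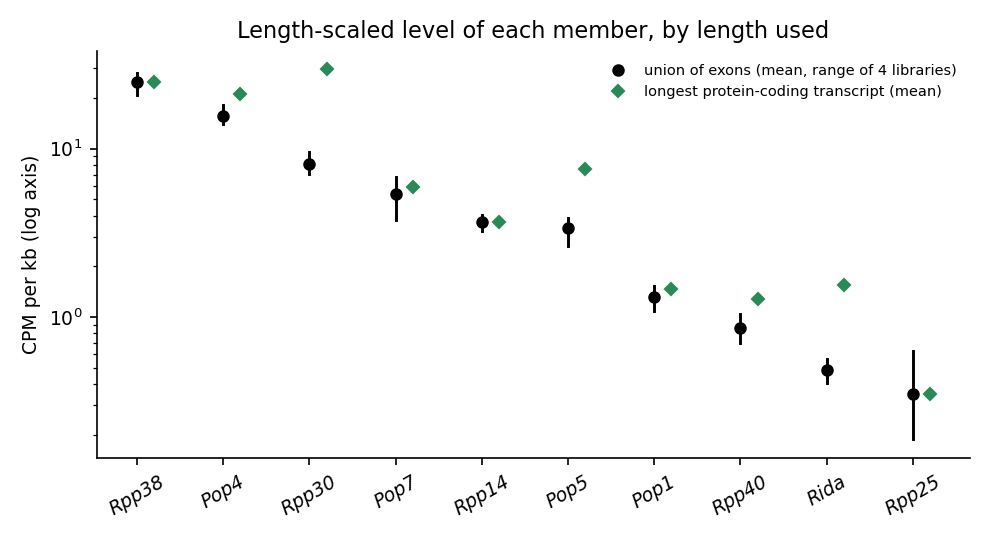
Mean CPM per kb of each member over the 4 libraries on a log axis. Black points use the union of exons, with bars for the range over libraries, and green diamonds use the longest protein-coding transcript. Rpp38 (25.02) leads and Rpp25 (0.351) is last on the black scale, and Rpp30 and Rida move most between scales.

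No member passed the test of genotype. In the quasi-likelihood test of edgeR, with p-values adjusted by Benjamini-Hochberg over 21132 genes, 0 of the 10 members were called at an adjusted p under 0.05, against 0.393% of all genes tested (83 genes). All 10 members passed the filter on low counts. At an unadjusted p under 0.05 there was 1 member, Pop7, against 14.1% of all genes. Of all genes 7.65% were at that threshold and higher, as Pop7 was, and 6.47% were at it and lower, as no member was. In the authors' deposited table, 0 of the 9 members with an adjusted p passed that threshold, against 1.32% of its genes, and Rpp25 had none. Log2 fold changes (vKO minus control) ran from -0.25 for Rpp30 to 0.92 for Rpp25, with a median of 0.08 over the members and 0.00 over all genes. They were positive in 7 members and negative in 3, against 50.3% positive over all genes tested. Without control replicate 1, those of Pop1, Rpp14, Rpp38 and Rpp40 turned negative. The median absolute log2 fold change was 0.11 over the members and 0.21 over all genes tested. With 2 libraries per group, an exact permutation test of a single gene cannot go below p = 0.33, so none was run.

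The groups did not overlap in 3 members, against 45.3% of all genes tested. Pop7 and Pop5 were higher in both vKO libraries than in both control libraries (22.7% of all genes were), and Rpp30 was lower in both (22.6%). The plot of CPM by library shows these separations beside the overlap of the other 7 members.

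**Figure D2:**
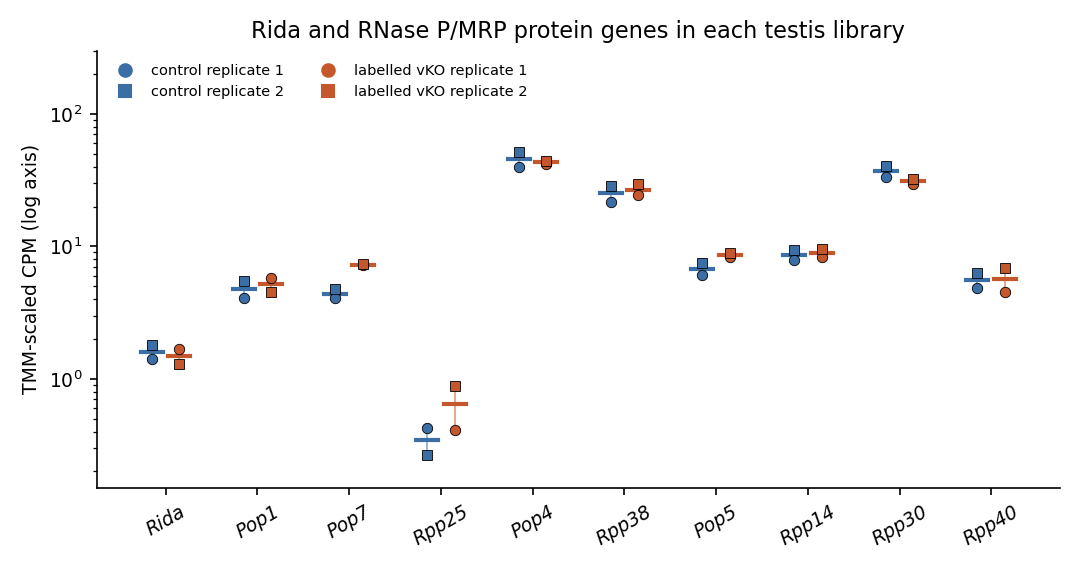
TMM-scaled CPM of each member on a log axis, with 1 symbol per library (circles replicate 1, squares replicate 2) and bars at the group means. Only Pop7, Pop5 and Rpp30 have groups that do not overlap, and Rpp25 lies under 1 CPM in all 4 libraries.

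Rida and Pop1 are neighbours. Rida (ENSMUSG00000022323) spans 34484021 to 34495255 of chromosome 15 (GRCm38) on the minus strand, and Pop1 (ENSMUSG00000022325) starts on the plus strand at 34495304 and ends at 34530648. The annotated genes point away from each other across a gap of 48 bases. Rida had 33 and 54 counts in the controls, against 45 and 35 in vKO, or 1.41 and 1.80 against 1.68 and 1.30 CPM. Control replicate 2 was the highest library and vKO replicate 2 the lowest, and the groups overlapped. The log2 fold change of Rida was -0.12 (SE 0.37, 95% interval -0.91 to 0.68), with an adjusted p of 0.932 by edgeR. The interval includes values on both sides of 0.

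Pop1 is the largest protein of both enzymes and a scaffold that wraps their RNA. It had 96 and 163 counts in the controls, against 155 and 123 in vKO, or 4.11 and 5.44 against 5.79 and 4.56 CPM. The groups overlapped here too, and as for Rida the higher libraries were control replicate 2 and vKO replicate 1. Its log2 fold change was 0.11 (SE 0.24, interval -0.42 to 0.64), with an adjusted p of 0.893 by edgeR. Leaving out single libraries turned the sign of both genes. Without control replicate 1 the log2 fold change of Pop1 was -0.08, and without control replicate 2 that of Rida was 0.08.

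The likeness of other genes to Rida was measured as the distance between log2 CPM profiles over the 4 libraries, each centred on its mean. Pop1 lay at 0.234 and was the nearest member, but 3.72% of 17818 genes lay nearer. The nearest genes were Gm7694 at 0.0337, Cenph at 0.0361 and Bcap31 at 0.0376, and 377 genes lay within 0.2. These distances rest on 4 libraries, with only 33 to 54 counts of Rida in each, and are a description. The only near-identical copy found for a member was the processed pseudogene Gm15028, 91.9% identical to Rida over 111 of 1004 bases, which is not used here.

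Pop7 had the clearest separation of the members. Pop7 and Rpp25 form a pair of Alba-family proteins that binds the enzymes' RNA. Pop7 (ENSMUSG00000029715, minus strand of chromosome 5, 137501438 to 137502518) had 95 and 142 counts in the controls, against 193 and 198 in vKO. Its levels were 4.06 and 4.74 CPM in the controls, against 7.21 and 7.34 CPM in vKO, or 4.40 ± 0.475 against 7.28 ± 0.0915 CPM (SD, n = 2 each). Both vKO libraries lay above both controls, and the difference was larger than the spread within either group. It differed by 0.72 on the log2 scale (SE 0.22, interval 0.26 to 1.19), a fold of 1.65, with an unadjusted p of 0.00529 and an adjusted p of 0.168 by edgeR, so Pop7 was not called. Over all 15 alternatives its log2 fold change stayed between 0.56 and 0.84 and its adjusted p between 0.0572 and 0.652. In the authors' deposited table it was 0.72 (SE 0.28), with an adjusted p of 0.219. In M21, Pop7 lies inside the span of Epo on the same strand, but no exon bases are shared.

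Rpp25 (ENSMUSG00000062309, plus strand of chromosome 9, 57504026 to 57505448) was counted in few reads, with 10 and 8 counts in the controls, against 11 and 24 in vKO, or 0.428 and 0.267 against 0.411 and 0.890 CPM. The groups overlapped, and vKO replicate 2 alone was high. The log2 fold change of 0.92 (SE 0.64, interval -0.47 to 2.30, adjusted p 0.572 by edgeR) thus rested on 1 library. Without vKO replicate 2 it was 0.26.

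The paralog Rpp25l, which was not among the members, was far more abundant in these testes. It had 476 and 614 counts in the controls, against 666 and 691 in vKO. Its mean of 26.7 CPM per kb, with a range of 23.8 to 29.9, was above the mean of every member by the union of exons, though its range overlapped that of Rpp38, and far above the 0.351 CPM per kb of Rpp25. The 2 vKO libraries of Rpp25l, at 24.9 and 25.6 CPM, lay above the controls at 20.4 and 20.5 CPM. Rpp25l had a log2 fold change of 0.31 (SE 0.14), with an unadjusted p of 0.0526 and an adjusted p of 0.361 by edgeR. No alignment of Rpp25 to Rpp25l of at least 90% identity over 100 bases was found.

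The promoter windows of Pop7 and Rpp30 are shown because these genes had the largest non-overlapping differences in each direction and differ in base composition. Each 300-base window ends shortly after the RefSeq start in GRCm38.p6 and is printed with CG dinucleotides in capitals. Pop7 holds 31 of them, more than 89.4% of 32851 promoters, and Rpp30 holds 11, more than 58.6%. The median promoter holds 7. The other 6 members with an entry (Pop4, Pop5, Rpp14, Rpp25, Rpp38 and Rpp40) lie between 12 and 26.
Pop7 (chr5:137502380-137502679, minus strand): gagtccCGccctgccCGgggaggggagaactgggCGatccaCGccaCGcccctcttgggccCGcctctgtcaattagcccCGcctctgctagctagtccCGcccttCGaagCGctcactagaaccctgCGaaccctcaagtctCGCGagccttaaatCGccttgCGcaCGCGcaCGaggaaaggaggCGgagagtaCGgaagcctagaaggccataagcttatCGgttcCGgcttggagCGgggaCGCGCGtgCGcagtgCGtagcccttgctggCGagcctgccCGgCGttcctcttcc
Rpp30 (chr19:36083466-36083765, plus strand): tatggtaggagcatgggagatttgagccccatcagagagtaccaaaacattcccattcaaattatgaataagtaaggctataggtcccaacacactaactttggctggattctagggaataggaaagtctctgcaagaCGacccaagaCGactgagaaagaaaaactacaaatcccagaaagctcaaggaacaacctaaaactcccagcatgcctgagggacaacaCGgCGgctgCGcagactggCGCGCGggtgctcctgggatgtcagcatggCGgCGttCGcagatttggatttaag
Nothing in these data measured the activity of the promoters.

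Pop4 and Rpp38 were among the most abundant members, and neither differed between the groups beyond the spread. Pop4, an RNA-binding subunit, had 931 and 1553 counts in the controls, against 1127 and 1190 in vKO, or 39.8 and 51.8 against 42.1 and 44.1 CPM. Both vKO libraries lay between the controls. Its log2 fold change was -0.09 (SE 0.15, interval -0.41 to 0.23). Rpp38, a subunit of the family that binds kink-turn RNA, had 508 and 862 counts in the controls, against 652 and 794 in vKO. Its levels were 21.7 and 28.8 CPM in control, overlapping the 24.4 and 29.4 CPM of vKO, and its log2 fold change was 0.09 (SE 0.17, interval -0.28 to 0.45). The adjusted p by edgeR was 0.848 for Pop4 and 0.870 for Rpp38. Of the exon bases of Pop4, 12 are shared with Gm44767 on the other strand, and the use of strand in counting is not given in the sources used here.

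Rpp21, a metal-binding protein that pairs with Pop4 in RNase P and is not a member, went the other way from Pop7. It had 605 and 902 counts in the controls, against 436 and 625 in vKO. Its levels of 25.9 and 30.1 CPM in control lay above the 16.3 and 23.2 CPM in vKO. The groups differed by -0.51 on the log2 scale (SE 0.18, interval -0.89 to -0.12), with an unadjusted p of 0.0148 and an adjusted p of 0.231 by edgeR.

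The remaining proteins, Pop5, Rpp14, Rpp30 and Rpp40, form 1 arm of the human RNase P particle. Pop5 (ENSMUSG00000060152, plus strand of chromosome 5, 115235836 to 115245351) had 142 and 225 counts in the controls, against 224 and 241 in vKO, or 6.08 and 7.51 against 8.37 and 8.93 CPM. Both vKO libraries were the higher ones, by a margin smaller than the gap between the controls. Pop5 had a log2 fold change of 0.35 (SE 0.20, interval -0.09 to 0.78), with an adjusted p of 0.481 by edgeR. Its gene body overlaps that of Rnf10 on the other strand, but no exon bases are shared. Rnf10 had 9869 and 9543 counts in the controls, against 9809 and 9362 in vKO.

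Rpp30 (ENSMUSG00000024800, plus strand of chromosome 19, 36083716 to 36104777) encodes a protein with a barrel fold that lies near the catalytic core. It had 787 and 1203 counts in the controls, against 791 and 875 in vKO. After scaling it stood at 33.7 and 40.1 CPM in the controls, against 29.6 and 32.4 CPM in vKO, so that both vKO libraries were lower, the closest pair by little. Its log2 fold change was -0.25 (SE 0.14, interval -0.57 to 0.06), with an adjusted p of 0.470 by edgeR.

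Rpp14 and Rpp40 showed no separation. Rpp14, a small subunit related in fold to Pop5, had 7.83 and 9.34 CPM in the controls, against 8.33 and 9.64 CPM in vKO, and its log2 fold change was 0.06 (SE 0.19, interval -0.36 to 0.48). Rpp40 had 4.88 and 6.34 CPM in the controls, against 4.56 and 6.82 CPM in vKO, so that the vKO pair enclosed the control pair. Its log2 fold change was 0.02 (SE 0.25, interval -0.53 to 0.56). Rpp40 shares 80 exon bases with Gm48746 on the other strand.

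**Figure D3:**
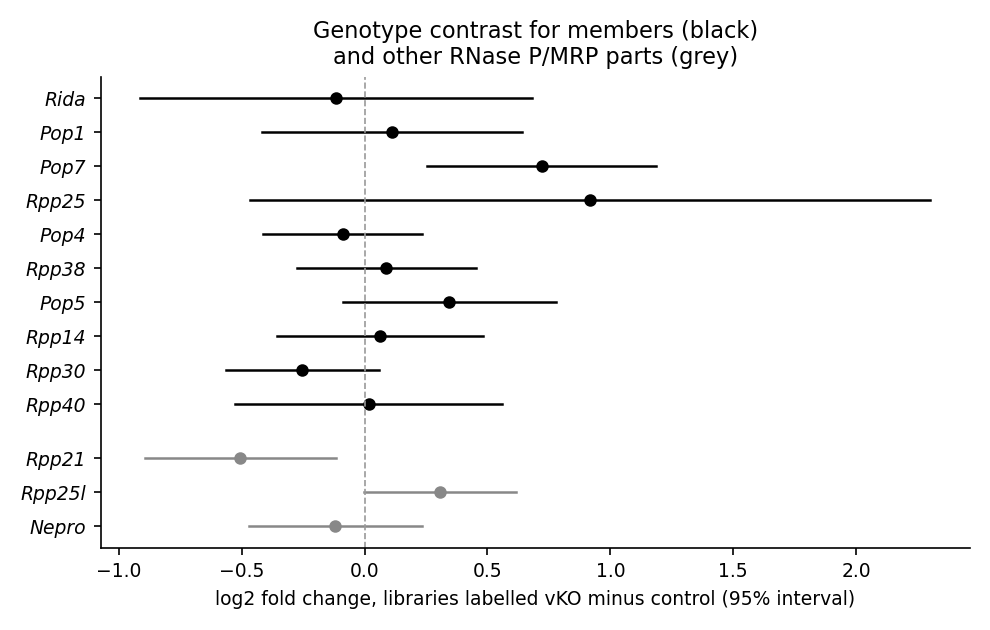
Log2 fold change (vKO minus control) of the members in black and of Rpp21, Rpp25l and Nepro in grey, with 95% intervals from edgeR. The intervals of 9 members include 0, that of Pop7 runs from 0.26 to 1.19 without adjustment for the number of genes, and that of Rpp25 is the widest.

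Summed over the 9 RNase P/MRP proteins, the level was 122.6 and 154.3 CPM in the controls, against 130.7 and 144.2 CPM in vKO. The vKO libraries lay between the controls. The means were 138.5 ± 22.4 and 137.4 ± 9.53 CPM (SD, n = 2 each). The sum was not divided by length, so longer transcripts weigh more in it and in the shares that follow. Pop4, Rpp30 and Rpp38 dominate this sum. Pop7 made up 3.32% and 3.07% of it in control and 5.52% and 5.09% in vKO. The level of Rida came to between 0.9% and 1.29% of the sum in the 4 libraries, with both extremes in vKO. In the plot of deviations, control replicate 1 was below the 4-library mean for all 10 members, though by under 0.01 on the log2 scale for Rpp30, and control replicate 2 was above it for 7.

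**Figure D4:**
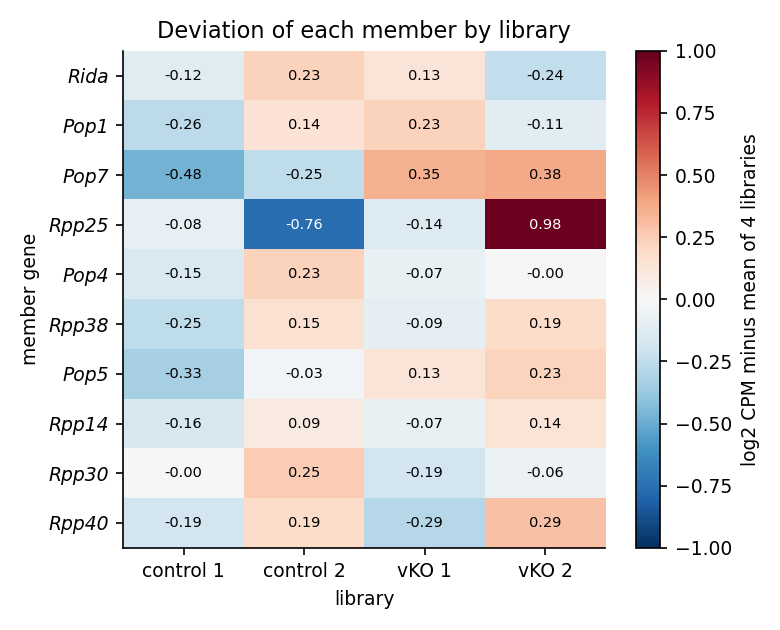
Log2 CPM of each member in each library minus its mean over the 4 libraries, on a colour scale from -1 to 1. Pop7 is low in both controls and high in both vKO libraries, Rpp25 is high in vKO replicate 2 alone (0.98), and control replicate 1 holds no positive value.

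The members' log2 fold changes followed the GC content of their transcripts. The 4 members richest in GC, Rpp25 (59.1%), Pop5 (57.4%), Pop7 (56.3%) and Pop1 (51.0%), had the 4 highest log2 fold changes. Rpp30, the poorest at 39.7%, had the lowest, followed by Rida at 41.8%. The Spearman correlation over the 10 members was 0.903, given as a description, since the genes share the same libraries. Over 17817 genes with a mean of at least 1 CPM it was 0.299. All genes had a median of 0.10 in the 3-point GC bin centred on 55.5%, where Pop7 lies, and -0.09 in that centred on 40.5%, where Rpp30 and Rida lie.

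With an offset for GC content fitted within each library, the correlation over all genes was -0.0196, and over the members 0.782. The offset lowered the log2 fold change of Pop7 to 0.56, with an unadjusted p of 0.0211 and an adjusted p of 0.278 by edgeR. For Pop5 it moved from 0.35 to 0.16 and for Rpp25 from 0.92 to 0.72. It moved to -0.16 for Rpp30 and to -0.03 for Rida. Pop7 and Rpp25 stayed the highest members and Rpp30 the lowest. Without control replicate 2, the library that stood apart in GC, Pop7 had a log2 fold change of 0.84 (adjusted p 0.0597 by edgeR), Pop5 0.51 and Rpp30 -0.12.

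**Figure D5:**
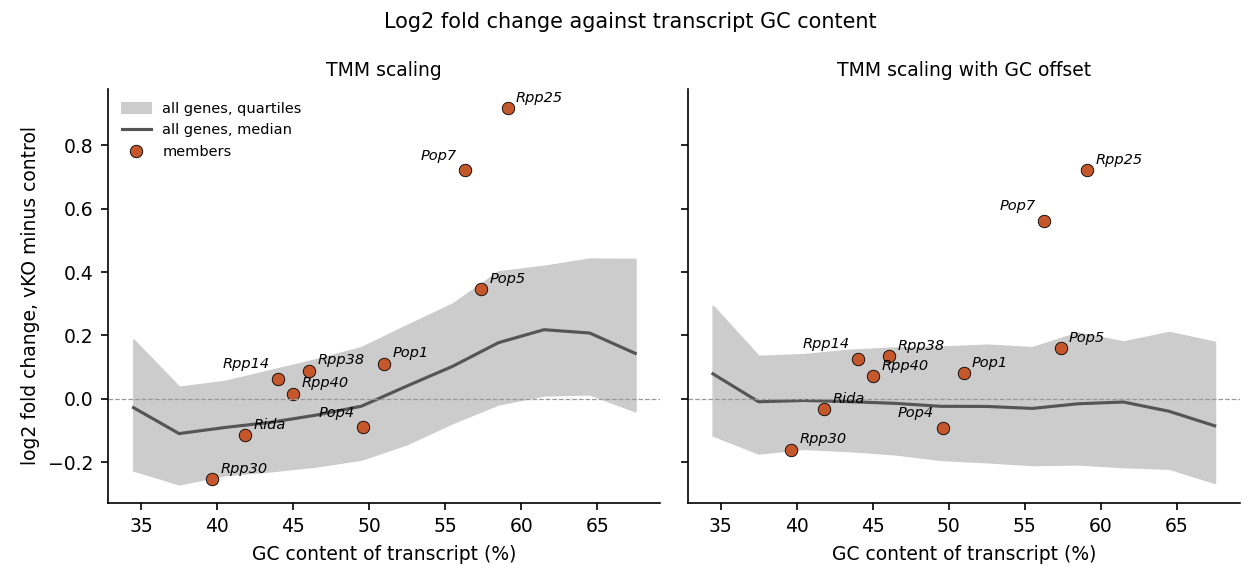
Log2 fold change (vKO minus control) against transcript GC content, on the left with TMM scaling and on the right with the added GC offset. Grey bands and lines give quartiles and medians of all genes of at least 1 CPM in 3-point GC bins of 20 or more genes. Members climb with GC content on the left, and Pop7 (0.72 left, 0.56 right) and Rpp25 lie above the band in both. Rpp25 is under 1 CPM in every library, so it is not among the genes of the band.

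Genes of related steps were read from lists. None of the 32 listed genes tested passed the threshold by edgeR, and 7 had an unadjusted p under 0.05, against 14.1% of all genes. Of the other RNase P/MRP parts, 3 of 5 were tested, Rpp21, Rpp25l and Nepro, a protein linked to RNase MRP. The catalytic RNAs Rpph1 and Rmrp were not analysed here. Nepro had 358 and 421 counts in the controls, against 351 and 375 in vKO, and its log2 fold change was -0.12 (SE 0.16). Of its exon bases, 517 are shared with Gtpbp8 on the other strand, and how counting used strand is not given.

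Mitochondria hold a separate RNase P made of protein alone. Of its 3 genes, Hsd17b10, which encodes a dehydrogenase subunit, stood at 5.56 and 7.44 CPM in the controls, against 10.8 and 9.04 CPM in vKO. This gave a log2 fold change of 0.60 (SE 0.21), an unadjusted p of 0.0135 and an adjusted p of 0.229 by edgeR. Prorp, the nuclease, and Trmt10c, a methyltransferase, had log2 fold changes of 0.02 and 0.08. Of 14 other tRNA maturation genes, 8 had positive values, with a median of 0.02. Trnt1, which adds the CCA end, was the exception in size, at 84.9 and 88.7 CPM in the controls, against 64.1 and 65.4 CPM in vKO. This gave a log2 fold change of -0.42 (SE 0.12), an unadjusted p of 0.00452 and an adjusted p of 0.162 by edgeR.

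Among 7 genes of precursor rRNA spacer processing, 3 had positive values and the median log2 fold change was -0.05. Pes1 and Wdr12, partners in large-subunit assembly, had log2 fold changes of -0.33 and -0.34, with adjusted p values of 0.251 and 0.247 by edgeR. Bop1, of the same list, went the other way at 0.13, with both vKO libraries above both controls (adjusted p 0.715 by edgeR). Of 5 genes of YTHDF2 and its partners, 4 had positive values, with a median of 0.28. Ythdf2 had a log2 fold change of 0.35 (adjusted p 0.238 by edgeR). Cnot1, the scaffold of CCR4-NOT, had 696 and 656 CPM in the controls, against 531 and 495 CPM in vKO. The difference on the log2 scale was -0.40 (SE 0.12), at an adjusted p of 0.162 by edgeR. Upf1, a helicase of nonsense-mediated decay, had a log2 fold change of 0.32 with overlapping groups.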

How the data were processed

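Per the labels' protocols, testis RNA was extracted with Trizol, depleted of ribosomal RNA and made into directional libraries. HISAT2 2.1.0 and HTSeq 0.6.1p1 are named in the submitters' processing notes without settings, and the genome build and use of strand are not given in the sources used here. The authors deposited raw read counts per gene, and, per the file headers, a mean normalized count (a signal of counts over size factors), a log2 fold change and its standard error, a test score, a p-value and an adjusted p-value under DESeq2's column names.

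Deposited counts were tested in R 4.3.3 with edgeR 4.0.16 (on limma 3.58.1). Scaling was by TMM, low genes were removed by filterByExpr, and the quasi-likelihood fit was robust with genotype as its single term, a prior count of 0.125 and two-sided tests, adjusted by Benjamini-Hochberg over 21132 genes. The SE is the absolute log2 fold change over the square root of F, and 95% intervals use the t quantile of its degrees of freedom. The script was tested on simulated data. The members and lists were chosen with earlier results of these data known. All members are named. Of the listed genes, those at an unadjusted p under 0.05, the RNase P/MRP parts and Ythdf2 are named. Prorp, Trmt10c, Bop1 and Upf1 were added after their values were seen. Lengths, GC content and coordinates come from GENCODE M21 (GRCm38), in which 25241 of 25265 identifiers were found. Near-identical copies were sought with blastn 2.17.0 at 90% identity over 100 bases. Promoters are RefSeq's, and 8 of 10 members matched. Alternatives changed scaling, filter, test, block, offsets, prior count and length, and left out each library. Counts of replicates differed beyond sampling noise (chi-square per degree of freedom 21.2 in control and 8.42 in vKO), so none were merged. Reads carry no molecular identifiers, so amplified copies could not be told from separate molecules in the counts. The SE and intervals rest on the spread between these libraries, which may be technical.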

Additional observations from a re-analysis of the deposited data

How the results depend on the processing

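No member passed an adjusted p of 0.05 under any alternative that gave one and kept all libraries, including the DESeq2 1.42.0 Wald test. Few of all genes passed either, with 0.393% of 21132 called in the original fit. Of these alternatives the fit with a replicate block called the most genes, 627 higher and 390 lower. With so few members, the lack of a call does not set them apart from other genes. Of 149 single-member values under alternatives, 137 kept their direction and 12 turned, all of members within 0.12 of 0 on the log2 scale. With the transcript length offset Rpp40 was -0.044. Across the 4 fits without 1 library, Rida ran from -0.31 to 0.077, Pop1 from -0.079 to 0.33, Pop4 from -0.27 to 0.12, Rpp14 from -0.063 to 0.20, Rpp38 from -0.10 to 0.31 and Rpp40 from -0.30 to 0.28. The median member log2 fold change lay between -0.09 (without control replicate 1) and 0.27 (without control replicate 2). Pop7, Pop5, Rpp25 and Rpp30 kept their direction throughout. The summed level of the 9 proteins, vKO minus control, was -1.05 CPM, 4.67 CPM with library totals alone, and -16.9 to 14.8 CPM across fits without 1 library.

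Counts over all genes moved more than the members. Against 59 higher and 24 lower calls, library totals alone gave 181 and 37, the DESeq2 Wald test 137 and 80, the GC offset 70 and 57, and an adjusted p under 0.01 left 8 and 2. Lower calls were 15 without robust estimation. Leaving out a library gave 30 to 1048 higher and 5 to 523 lower calls, where the lone library of a group is assumed to vary like the others. Higher genes were 71.1% of calls in the original fit, 83.0% with library totals and 55.1% with the GC offset. The cause was not tested. The replicate block gave 627 higher and 390 lower calls, and with the GC offset 140 and 155. Libraries with the same number deviated together only weakly (correlation 0.0913 across genes, 2 pairs), and they were treated as unpaired. Under the block, the adjusted p of Pop7 was 0.0572 and no member was called.

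Levels per kb by the longest annotated transcript were 21.04 for Pop4, 4.87 for Pop5, 5.91 for Pop7, 18.1 for Rpp30 and 1.29 for Rpp40. By the longest protein-coding transcript, a choice made after seeing the data, they were 1.54 for Rida, 21.04 for Pop4, 7.53 for Pop5, 5.91 for Pop7, 29.7 for Rpp30 and 1.29 for Rpp40. Rpp25 had no value with at least 10 counts in every library. Rida (33 to 54 counts per library) and Rpp25 (8 to 24) had the lowest counts of the members and the widest intervals.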
